A study of Mus musculus with 6 samples.

Results

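The matrix metalloproteinases (MMPs) and their inhibitors were followed by the rows of the deposited gene tables whose symbol matched 1 of 10 listed genes. The list holds the proteases Mmp2, Mmp3, Mmp9, Mmp13, Mmp14 and Mmp19, the tissue inhibitors of metalloproteinases (TIMPs) Timp1, Timp2 and Timp3, and Reck. Rows were found for 9 of the 10 among 24794 genes, and the expression of Timp3 was not analysed here. Of these 9, 8 passed the filter on low counts and were tested, while Reck was near zero and was not. Polyadenylated RNA was sequenced from Lewis lung carcinoma (LLC) cells, a mouse lung tumour line, in 3 libraries transfected with miR-291-3 mimics and 3 transfected with a control mimic. The design text names the overexpressed microRNA as miR-291a-3p, and the title names proliferation, invasion and migration as the processes in question. The labels give no dose of the mimic, no hours from transfection to harvest, and no word on whether replicates were separate cultures. The p-values thus reflect only the scatter among these 6 libraries, which can be technical, and in bulk RNA fewer cells of a type and less RNA per cell cannot be told apart.

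MMPs are zinc-dependent proteases that cut collagens, laminins, fibronectin and other parts of the extracellular matrix. They are made as inactive precursors, kept shut by a cysteine of the propeptide, and other proteases or membrane-bound MMPs open them. TIMPs bind the active site of mature MMPs, and TIMP2 also links MMP2 to MMP14 at the cell surface, where MMP14 activates it. In carcinomas these enzymes are known for breaking the basement membrane ahead of invading cells.

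A microRNA lowers messenger RNAs by pairing its seed, bases 2 to 8, with sites in their 3' untranslated regions (UTRs). The mature miR-291a-3p, as RefSeq gives it on GRCm38.p6 at chr7:3218968-3218989, is shown with the seed in capitals because the sites sought in the members were derived from it.

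miR-291a-3p: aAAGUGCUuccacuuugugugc

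Of the 9 members with a row, 1 held a 7-base site in its longest 3' UTR, 3 held a 6-base site only, and 5 held none. The 6-base site pairs with bases 2 to 7 of the microRNA, and the 7-base site found here adds an A after it, opposite base 1, which is not a pairing of the seed. The annotation was GENCODE M21 on GRCm38, which is not the GRCm39 build of the deposited values. The member with the 7-base site was Reck, a membrane-anchored inhibitor of MMPs, with the word GCACTTA at bases 1175 to 1181 of a UTR of 1441 bases. Mmp9, Mmp19 and Timp2 held the 6-base word GCACTT. The 30-base windows are printed 5' to 3' on the gene's strand, with the site in capitals, to show how short these matches are.

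Reck, 7mer-A1 at chr4:43944529-43944558, plus strand: gttgaaagtggGCACTTAatgctttcagag

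Mmp9, 6mer at chr2:164955252-164955281, plus strand: ttttgtgacagGCACTTcaccggctaaacc

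Mmp19, 6mer at chr10:128800238-128800267, plus strand: aaagacagaagGCACTTggctacagtgcag

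Timp2, 6mer at chr11:118301824-118301853, minus strand: cattagactttGCACTTttaaaaaaaaaaa

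Each window is contiguous in the genome. Mmp3, Mmp13, Mmp2, Mmp14 and Timp1 held none of these words. With the transcript of the longest coding sequence in place of the longest UTR, Mmp14 held a 6-base site. Over the 11580 tested genes whose 3' UTR is annotated, 20.9% had a site of 7 or 8 bases and 66.7% had none of the 4 site types. A site here is a match of letters, and the pairing of the mimic with these messages was not measured.

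Activator protein 1 (AP-1), a dimer of FOS and JUN family proteins, is a textbook regulator of several MMP promoters. RefSeq promoter windows, 250 bases before to 50 bases after a start, were at hand for 7 members, with Mmp2, Mmp9 and Mmp19 not among them. The AP-1 words TGAGTCA and TGACTCA, which are each other's reverse complement and so cover both strands, lay in the windows of Mmp3 and Mmp13. The windows of Mmp14, Timp1, Timp2, Timp3 and Reck held neither word. Only exact words were sought, so words that differ in 1 base, such as TGAGTAA in the Timp1 window, were not counted. A window without an exact word can thus still hold a site for AP-1. Of all 32851 windows 5.2% held 1 of them. The 2 windows with a word are printed, with the word in capitals, to show where it lies.

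Mmp3, chr9:7445572-7445871, plus strand: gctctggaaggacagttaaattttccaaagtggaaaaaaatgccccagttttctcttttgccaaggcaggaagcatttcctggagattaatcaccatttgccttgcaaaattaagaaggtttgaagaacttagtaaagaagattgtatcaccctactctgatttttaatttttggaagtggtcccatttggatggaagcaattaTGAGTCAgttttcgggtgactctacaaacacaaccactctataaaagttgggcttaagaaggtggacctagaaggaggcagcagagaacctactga

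Mmp13, chr9:7272264-7272563, plus strand: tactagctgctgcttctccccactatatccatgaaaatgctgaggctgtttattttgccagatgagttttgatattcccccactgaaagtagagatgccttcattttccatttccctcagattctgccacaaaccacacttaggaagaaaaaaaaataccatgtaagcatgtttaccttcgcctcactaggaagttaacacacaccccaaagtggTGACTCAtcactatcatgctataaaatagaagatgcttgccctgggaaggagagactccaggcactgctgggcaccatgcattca

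The word starts 46 bases before the start in Mmp3 and 35 bases before it in Mmp13 (GRCm38.p6). Both genes belong to the MMP cluster of chromosome 9, where 7 of 10 genes with a window held such a word, against 0 of 13 other listed MMPs, TIMPs and Reck. Whether AP-1 occupied these words in LLC cells was not measured, and a link between the words and the changes in level was not tested.

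The libraries held 25376993 to 29058948 counts in the mimic group and 28318155 to 32963986 in the control group. The labelled carcinoma identity was checked on markers. Krt8, a keratin of simple epithelia, stood at 238.61 to 251.38 FPKM (fragments per kilobase of transcript and per sequencing depth, as deposited) in mimic libraries and 219.52 to 226.66 in control libraries. Vim, the intermediate filament of mesenchymal cells, stood at 337.14 to 350.60 FPKM in mimic and 381.97 to 388.56 in control libraries. Sparc, another mesenchymal marker, stood at 133.12 to 137.74 FPKM in mimic and 91.55 to 94.14 in control libraries. S100a4 stood at 20.80 to 24.70 FPKM in mimic and 36.25 to 41.10 in control libraries. Of these 3 mesenchymal markers, 1 rose and 2 fell. Epcam, Cdh1 and the lung markers Sftpb and Napsa were under 1 FPKM in each library. The other simple-epithelial keratins were low, with Krt18 at 1.88 to 2.62 FPKM in mimic and 1.01 to 1.45 in control libraries, and Krt7 at 0.25 to 0.30 in mimic and 0.16 to 0.20 in control libraries. Of the epithelial and lung markers with a row, Krt8 alone was abundant. Of 7 leukocyte and macrophage markers, 4 were tested and 2 fell, with summed levels of 5.90 to 6.33 FPKM in mimic and 9.47 to 10.98 in control libraries. Lyz2, Cd14 and Cd68, named after their values were seen, made up most of these sums. The 2 that fell were Lyz2, at 1.67 to 2.08 FPKM in mimic and 3.08 to 4.89 in control libraries, and Cd14. Cd14 stood at 2.92 to 3.56 FPKM in mimic and 4.52 to 5.34 in control libraries. Lyz2 was highest in control replicate 2. Cd68, at 0.77 to 1.13 FPKM in mimic and 0.88 to 1.45 in control libraries, was not called. The leukocyte genes Ptprc, Adgre1 and Itgam were at 0 in every mimic library and at most 0.07 FPKM in a control library. All reads of Ptprc and Adgre1 lay in control replicate 2, and those of Itgam in control replicates 1 and 2. Control replicate 2 also held 18 of the 19 counts of Mmp12, a gene given below. Of the fibroblast markers 4 were tested, 2 rose and 1 fell, with summed levels of 7.12 to 7.50 FPKM in mimic and 6.52 to 7.18 in control libraries. Leukocytes and fibroblasts can also make MMPs, and the part of these markers in the changes below was not tested.

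TIMP messages were far more abundant than those of the proteases, and MMP14 led the proteases. Compared per length, Timp1 averaged 55.4 ± 2.08 FPKM in mimic and 68.8 ± 2.48 in control libraries (SD, n = 3 each, as for all means). Timp2 followed with 46.4 ± 1.16 FPKM in mimic and 45.3 ± 1.16 in control libraries. Mmp14, the membrane-bound protease MT1-MMP, came next with 13.2 ± 0.354 FPKM in mimic and 10.96 ± 2.08 in control libraries. At the plasma membrane MMP14 opens the MMP2 precursor. Timp1, Timp2 and Mmp14 made up 96.4% ± 0.0971 of the summed FPKM of the 9 members in mimic libraries and 95.4% ± 0.0851 in control libraries. Below them the order of levels differed between the groups. In mimic libraries Mmp19 (2.26 ± 0.127 FPKM) stood above Mmp3 (0.94 ± 0.137), and in control libraries Mmp3 (3.17 ± 0.320) stood above Mmp19 (1.89 ± 0.111). The remaining genes lay below 1 FPKM in every library. Mmp2 was at 0.59 ± 0.08 FPKM in mimic and 0.53 ± 0.0265 in control libraries. Mmp9 averaged 0.403 ± 0.0586 FPKM in mimic and 0.177 ± 0.0306 in control libraries. Mmp13 averaged 0.09 ± 0.04 FPKM in mimic and 0.227 ± 0.119 in control libraries, and Reck 0.0367 ± 0.0208 in mimic and 0.03 ± 0.0173 in control libraries. The ranges of neighbours in this order overlapped for Mmp13 and Reck in mimic libraries and for Mmp13 and Mmp9 in control libraries, and for no other neighbours.

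**Figure D1:**
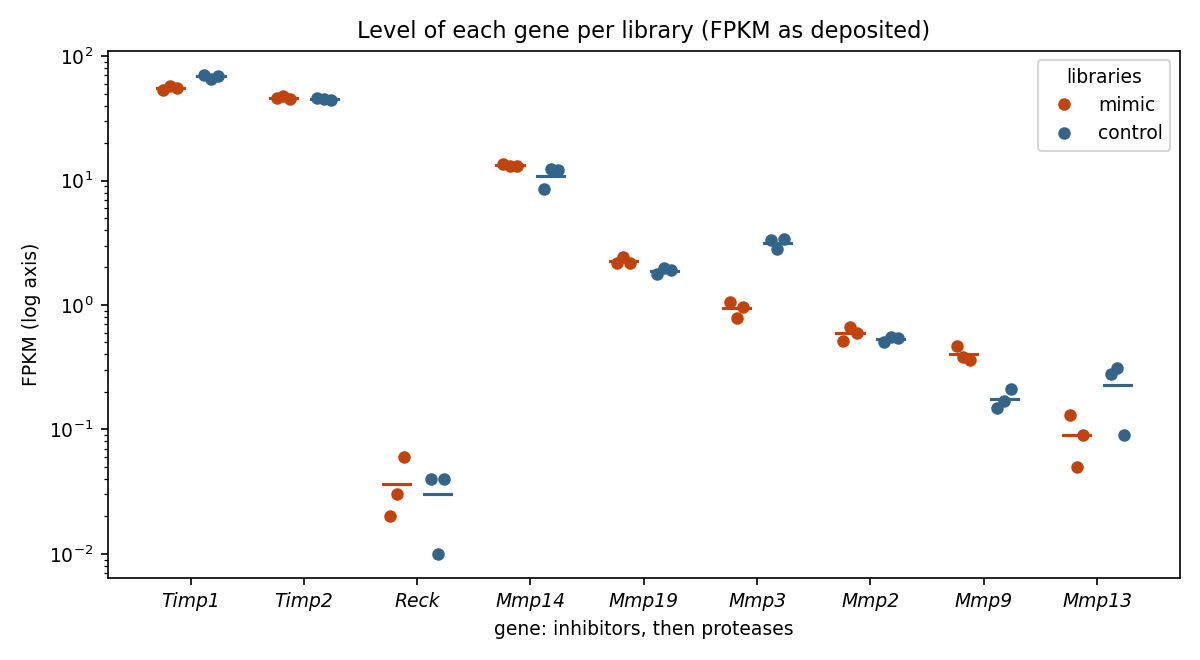
FPKM of each gene in each library, on a log axis, with the 3 mimic libraries left of the 3 control libraries and a line at each group's mean. Timp1, Timp2 and Mmp14 lie near or above 10 FPKM, and Reck lies at 0.01 to 0.06 FPKM.

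In the test of all genes, 4 of the 8 tested members rose, 3 fell and 1 was not called (quasi-likelihood test of edgeR, p adjusted by Benjamini-Hochberg over 13779 genes, threshold 0.05). Of all tested genes 24.3% rose and 24.8% fell, so calls were common in this comparison. The 8 members had a median log2 change of 0.13, against -0.01 over all tested genes. With total counts in place of TMM scaling, 2341 of all genes rose and 4444 fell, in place of 3349 and 3423, and each tested member kept its direction. The groups did not overlap in CPM (counts scaled to the library's depth) for 6 of the 8 members, where 54.9% of all tested genes showed the same.

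The stromelysin gene Mmp3 and the collagenase gene Mmp13, both secreted proteases, fell. Mmp3 (ENSMUSG00000043613.9, chromosome 9), stromelysin 1, cuts proteoglycans, laminin and fibronectin and activates other MMPs. It had 2.21, 1.63 and 2.04 CPM in mimic libraries, against 6.81, 5.65 and 6.84 CPM in control libraries. The highest mimic library lay below the lowest control library. The fit gave a log2 change of -1.72 ± 0.14 (SE; adjusted p = 5.74e-12, edgeR), a ratio of 0.303 with a 95% interval of 0.249 to 0.368. It ranked 23 from the lowest log2 change among the 13779 tested genes. The counts behind it were 158 over the mimic and 598 over the control libraries.

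Mmp13 (ENSMUSG00000050578.11, chromosome 9), collagenase 3, cuts fibrillar collagens. It rested on few reads, 10, 4 and 8 counts in mimic libraries against 25, 27 and 9 in control libraries. In CPM these were 0.401, 0.145 and 0.281 in mimic and 0.830, 0.936 and 0.268 in control libraries. Mimic replicate 1 and control replicates 1 and 2 carried it past the filter on low counts. Control replicate 3 lay within the range of the mimic libraries, so the groups overlapped. The log2 change was -1.27 ± 0.42 (SE; adjusted p = 0.0131, edgeR), and -1.68 without control replicate 3 (adjusted p = 0.000656, edgeR). The call was lost without mimic replicate 2 (adjusted p = 0.0865), control replicate 1 (0.0716) or control replicate 2 (0.0927), and with limma on log2(FPKM + 0.1) (adjusted p = 0.0881) or log2(FPKM + 1) (0.0901).

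The gelatinase Mmp9 rose. MMP9 (gene ENSMUSG00000017737.3, chromosome 2) degrades gelatin and type IV collagen of basement membranes. It had 48, 43 and 42 counts in mimic libraries, against 18, 20 and 28 in control libraries. In CPM it stood at 1.92, 1.55 and 1.48 in mimic and 0.598, 0.694 and 0.833 in control libraries. Each mimic library lay above each control library. The log2 change was 1.20 ± 0.23 (SE; adjusted p = 6.63e-05, edgeR), a 2.30-fold increase with a 95% interval of 1.66 to 3.20. It ranked 31 from the highest log2 change of all tested genes. Mmp9 and Mmp3, both of low level, thus stood near opposite ends of the range of changes.

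The other gelatinase, Mmp2 (ENSMUSG00000031740.9, chromosome 8), was not called. It had 50, 71 and 66 counts in mimic libraries, against 57, 60 and 69 in control libraries. In CPM it averaged 2.30 ± 0.281 in mimic and 2.01 ± 0.101 in control libraries, and the groups overlapped. Its log2 change was 0.20 ± 0.17 (SE; adjusted p = 0.355, edgeR), with a 95% interval of -0.15 to 0.54. As a fold this interval runs from 0.903 to 1.45.

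The membrane protease Mmp14 rose by a small amount that 1 library moved. Mmp14 (ENSMUSG00000000957.12, chromosome 14) had 93.8, 88.7 and 90.1 CPM in mimic libraries, against 57.6, 82.0 and 81.3 in control libraries. The mimic libraries all lay above the control libraries, of which replicate 1 stood apart on the low side. The fold was 1.23 with a 95% interval of 1.12 to 1.35 (log2 change 0.30 ± 0.07, SE; adjusted p = 0.000293, edgeR). Without control replicate 1 it was 1.11-fold (log2 change 0.15, adjusted p = 0.000278, edgeR). The call was lost with the DESeq2 Wald test (adjusted p = 0.110) and with limma on log2(FPKM + 0.1) (adjusted p = 0.0943) or log2(FPKM + 1) (0.0979).

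Mmp19 (ENSMUSG00000025355.8, chromosome 10), a protease of basement membrane components, had 8.94, 9.72 and 9.03 CPM in mimic libraries, against 7.04, 7.87 and 7.58 in control libraries. Each mimic library exceeded each control library. It rose 1.23-fold with a 95% interval of 1.09 to 1.39 (log2 change 0.30 ± 0.09, SE; adjusted p = 0.00467, edgeR). Its locus overlaps Tmem198b on the other strand, a gene chosen after its values were seen, which fell (log2 change -0.26, adjusted p = 0.000393, edgeR). The libraries were directional per the protocols, but the strand setting of the counting is not stated. Whether the counts kept reads of such antisense pairs apart is thus unknown.

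**Figure D2:**
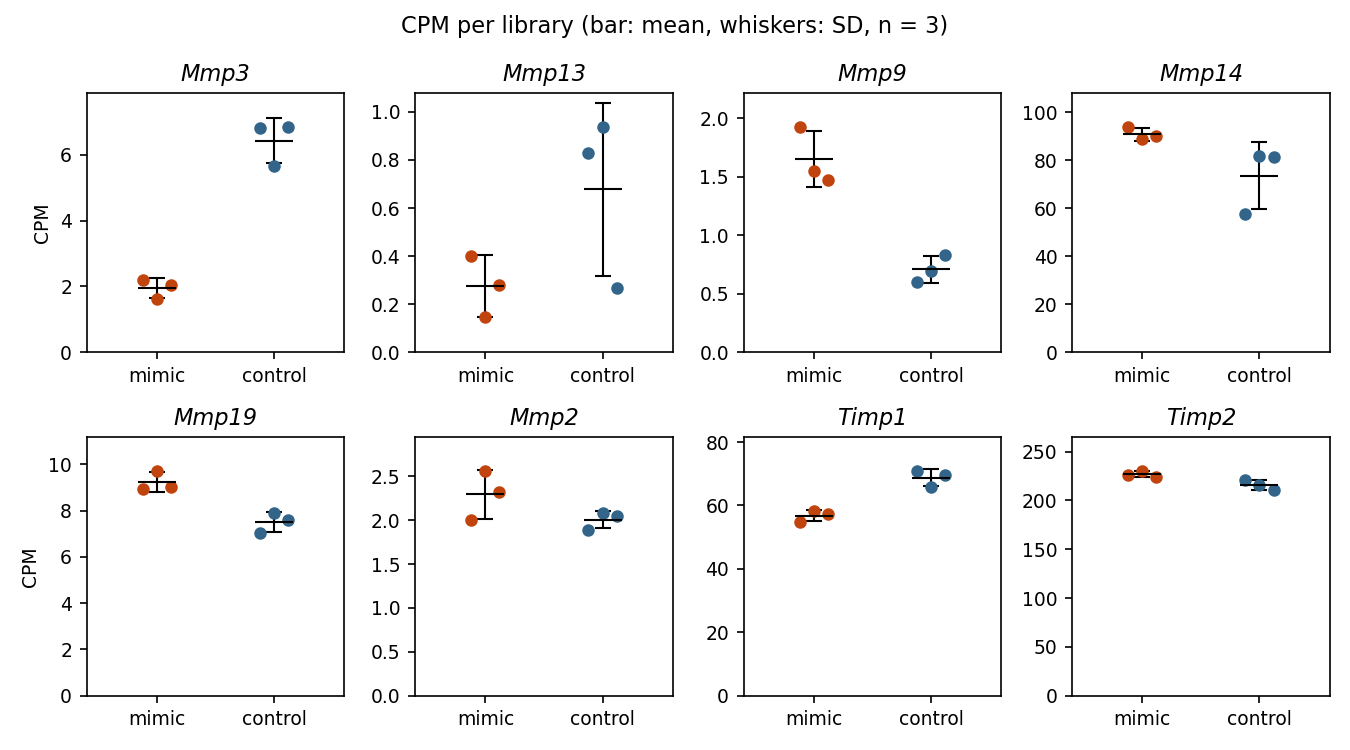
CPM of the 8 tested genes in each library, mimic left of control, on axes from 0, with the mean (bar) and SD (whiskers, n = 3). Mmp3 sits at 1.63 to 2.21 CPM in mimic and 5.65 to 6.84 in control libraries, and the low control point of Mmp14, 57.6 CPM, is replicate 1.

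Of the inhibitors, Timp1 fell and Timp2 rose slightly. Timp1 (ENSMUSG00000001131.12, chromosome X), an inhibitor of most soluble MMPs, had 54.8, 58.3 and 57.2 CPM in mimic libraries, against 71.0, 65.7 and 69.8 in control libraries. All mimic libraries lay below all control libraries. The ratio was 0.825 with a 95% interval of 0.785 to 0.868 (log2 change -0.28 ± 0.04, SE; adjusted p = 1.19e-07, edgeR). Timp1 lies inside Syn1, which is transcribed from the other strand. Syn1, the synapsin 1 gene and chosen after its values were seen, averaged 27.0 ± 0.593 CPM in mimic and 31.0 ± 0.453 in control libraries and also fell (log2 change -0.20, adjusted p = 0.000603, edgeR). How far the 2 genes share reads was not tested.

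Timp2 (ENSMUSG00000017466.11, chromosome 11), the TIMP that bridges MMP2 and MMP14, had 226, 230.5 and 224 CPM in mimic libraries, against 221, 216 and 211 in control libraries. The groups did not overlap, but the gap was narrow. The fold was 1.05 with a 95% interval of 1.02 to 1.09 (log2 change 0.07 ± 0.02, SE; adjusted p = 0.00983, edgeR). The call was lost with total counts only (log2 change 0.01, adjusted p = 0.620, edgeR), without mimic replicate 2 (adjusted p = 0.0519) or control replicate 3 (adjusted p = 0.0958), and with limma on log2(FPKM + 0.1) (adjusted p = 0.333) or log2(FPKM + 1) (0.335).

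Reck (ENSMUSG00000028476.14, chromosome 4), the member with the 7-base site, had 3, 5 and 10 counts in mimic libraries, against 6, 2 and 7 in control libraries. Summed, these were 18 counts in mimic and 15 in control libraries, a depth-corrected ratio of 1.37 with an exact 95% counting interval of 0.652 to 2.92. The interval covers counting error only and includes 1, so no difference between the groups was shown at this depth.

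**Figure D3:**
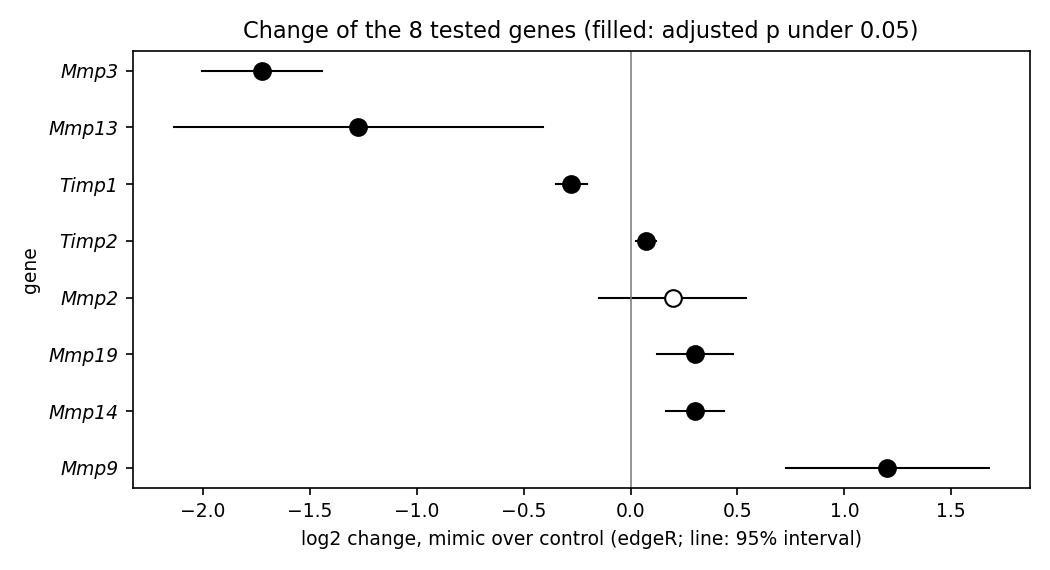
Log2 change (mimic over control) of the 8 tested genes from the edgeR fit, with 95% intervals and filled points where the adjusted p is under 0.05. Mmp3 lies at -1.72 and Mmp9 at 1.20, Mmp13 at -1.27 has the widest interval shown, and the interval of Mmp2 spans 0.

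The make-up of the set is given by its shares of summed FPKM. The FPKM of the 6 proteases summed to 17.5 ± 0.425 in mimic and 16.95 ± 2.03 in control libraries. Control replicate 1 lowered the control mean with a sum of 14.61. Control replicates 2 and 3, at 18.08 and 18.16, lay above every mimic library (17.16 to 17.97), so the protease sum gives no direction. The FPKM of Timp1 and Timp2 summed to 102 ± 3.00 in mimic and 114 ± 2.85 in control libraries. Mmp14 made up 75.5% ± 0.270 of the protease sum in mimic libraries and 64.3% ± 4.97 in control libraries. In control replicates 1, 2 and 3 this share was 58.6%, 67.8% and 66.4%. Timp2 made up 45.6% ± 0.690 of the sum of both TIMPs in mimic and 39.7% ± 1.02 in control libraries. The ratio of Mmp3 to Timp1 in FPKM was 0.0171 ± 0.00310 in mimic and 0.0460 ± 0.00317 in control libraries. These sums and ratios describe messages and carry no test. They leave out Timp3 and the MMPs beyond the listed genes, Mmp11 among them.

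Beyond the 10 genes, most other MMPs were rare in LLC cells. Of 18 further genes, MMPs and Timp4, 13 had a row and 4 were tested. Only Mmp11 among these 4 was called. Mmp11, stromelysin 3, averaged 14.9 ± 1.10 CPM in mimic and 18.5 ± 0.586 in control libraries (log2 change -0.32 ± 0.06, SE; adjusted p = 0.000101, edgeR). It was the second most abundant MMP by FPKM, with 4.63 in mimic and 5.91 in control libraries, behind Mmp14. Mmp23, Mmp24 and Mmp28 had log2 changes of -0.08, -0.23 and 0.00 that were not called. The further genes of the family failed the filter on low counts and are given by their counts. Mmp10, stromelysin 2 of the same chromosome 9 cluster as Mmp3, had 10, 7 and 6 counts in mimic and 7, 12 and 9 in control libraries, and the groups overlapped. Mmp12, the macrophage elastase, had 0 counts in all mimic libraries and 0, 18 and 1 in control libraries. Mmp15 had 2, 5 and 4 counts in mimic and 0, 1 and 0 in control libraries, and Mmp1b had 0 in all mimic and 3, 2 and 2 in control libraries. These are too few reads for a statement on direction. Mmp1a, Mmp17, Mmp25, Mmp27 and Timp4 summed to 4, 13, 17, 0 and 1 counts in mimic and 6, 13, 14, 2 and 0 in control libraries. The expression of Mmp7, Mmp8, Mmp16, Mmp20 and Mmp21 was not analysed here.

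The related ADAM and ADAMTS proteases, which shed membrane proteins or cut proteoglycans, split in direction. Of 15 tested, 2 rose, 4 fell and 9 were not called, with a median log2 change of -0.13. Over all tested genes 24.3% rose and 24.8% fell. The sheddases Adam10 and Adam17 fell by 0.19 and 0.17 on the log2 scale. Adamts17 fell most of the tested list, to 1.40 ± 0.411 CPM in mimic libraries, against 3.61 ± 0.477 in control libraries (adjusted p = 1.66e-07, edgeR). Adamts14, a procollagen processing enzyme, rose by 0.38 and Adamts1 by 0.30.

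Of 7 tested activators of MMP precursors, 2 rose and 2 fell, where 24.3% of all tested genes rose and 24.8% fell. Furin, the convertase that opens the MMP14 precursor, had a log2 change of -0.10 (adjusted p = 0.0229, edgeR). Plau, urokinase, had -0.10 (adjusted p = 0.0261, edgeR), while its receptor Plaur rose by 0.32 and Plat, the tissue plasminogen activator, by 0.26. With the DESeq2 Wald test neither fall was called, and leaving out single libraries left 0 to 2 falls, with 0 without mimic replicate 2 and 1 without mimic replicate 1, control replicate 1 or control replicate 3.

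Of 12 tested genes for docking, uptake and other control of MMPs, 8 rose and 2 fell, with a median log2 change of 0.15. Over all tested genes the shares were 24.3% risen and 24.8% fallen. With total counts only, 6 of the 12 rose and 3 fell. The integrin genes Itgb1 and Itgav rose by log2 changes of 0.18 and 0.25, and Lrp1, an endocytic receptor that clears MMPs, by 0.19. Thbs2, a matricellular protein that promotes uptake of MMP2, fell to 69.0 ± 2.53 CPM in mimic libraries, against 112 ± 1.92 in control libraries. Cd81, a tetraspanin, fell by 0.53 on the log2 scale.

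Among 20 tested transcription factors that bind MMP promoters, 7 rose and 5 fell, with a median of -0.01. Over all tested genes 24.3% rose and 24.8% fell, with the same median. The AP-1 subunit Fosl1 rose to 196 ± 3.30 CPM in mimic libraries, against 158 ± 2.62 in control libraries, while Jun fell to 78.6 ± 0.819 CPM in mimic libraries, against 88.4 ± 0.843 in control libraries. Of the 6 tested FOS and JUN family genes, 4 rose and 1 fell. Fos, also named after its values were seen, failed the filter on low counts. It had 7, 22 and 19 counts in mimic libraries, against 10, 5 and 7 in control libraries, and the groups overlapped. Without a filter it was called as risen (log2 change 1.30, adjusted p = 0.00412, edgeR), and 5 of 7 genes then rose. Fosl2, Junb and Jund, named after their values were seen, had log2 changes of 0.14, 0.23 and 0.21, all called as risen, and Fosb had -0.06 and was not called. Fosl2 lost its call under scaling by total counts (adjusted p = 0.0637, edgeR) and with limma on log2(FPKM + 0.1) (adjusted p = 0.0790) or log2(FPKM + 1) (0.0798). Ets1 and Stat3 had log2 changes of 0.21 and 0.30, both called as risen, and Etv1 and Runx1 fell by 0.45 and 0.18 on that scale. With total counts only, 9 factors in place of 5 were called as fallen.

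Of 20 tested genes for matrix proteins that MMPs cut, 11 rose and 7 fell, where 24.3% of all tested genes rose and 24.8% fell. Their median log2 change was 0.23, against -0.01 over all tested genes. Col7a1, the anchoring fibril collagen, rose by 1.20, the laminin chain gene Lamb1 by 0.58 and Sparc by 0.58. Fn1, fibronectin, fell to 64.1 ± 2.10 CPM in mimic libraries, against 114 ± 4.88 in control libraries, and Col3a1 and Spp1, osteopontin, fell by 0.37 and 0.20 on the log2 scale. Laminin and fibronectin are both substrates of MMP3. The messages of Lamb1 and Fn1 changed in opposite directions. Lama5, another laminin chain gene and named after its values were seen, fell like Fn1 (log2 change -0.07, adjusted p = 0.0134, edgeR).

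**Figure D4:**
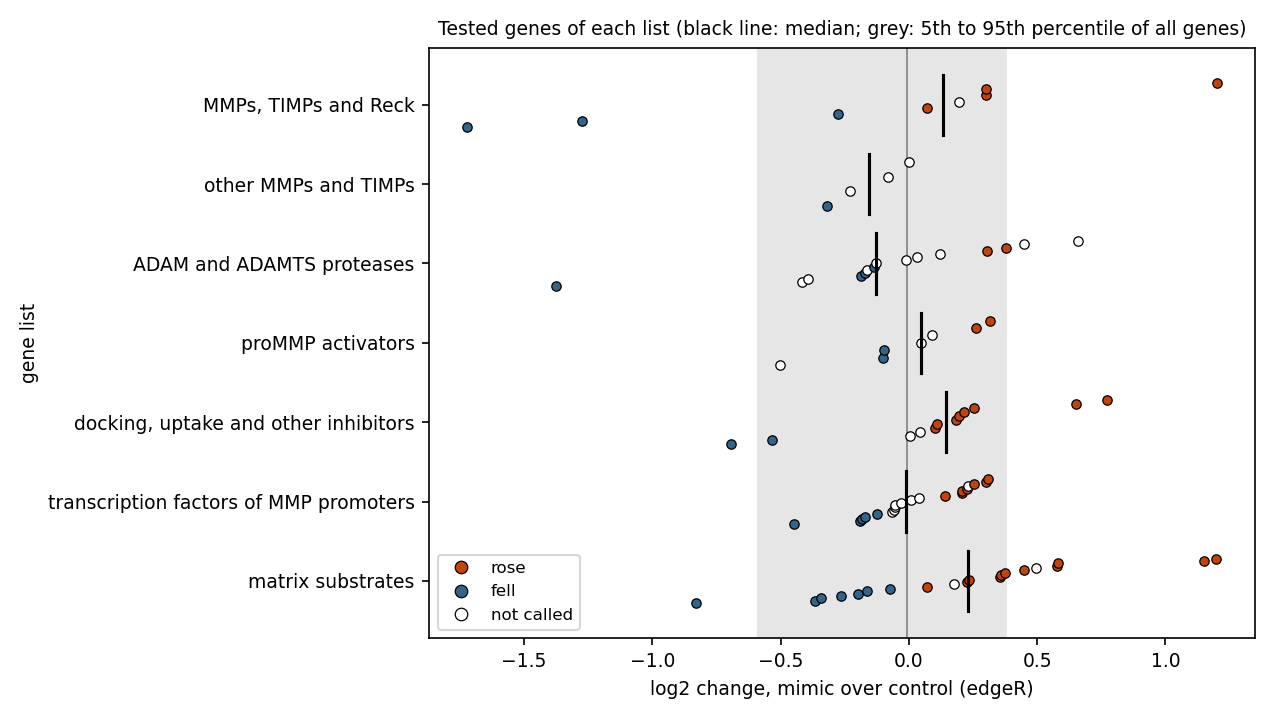
Log2 change (mimic over control, edgeR) of the tested genes of each list, with a black line at the list's median and grey for the 5th to 95th percentile of all tested genes. Mmp3 (-1.72), Mmp13 (-1.27) and Mmp9 (1.20) lie outside the grey band, while the other 5 tested members lie inside it.

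Across the 6 libraries the genes whose log2 CPM followed Mmp3 most closely were Dok1, Hacd4 and Slc25a12, with Pearson r of 0.999, 0.999 and 0.998. All 3 were lower in the mimic libraries, with log2 changes of -0.61, -0.74 and -0.25. The 6 points fall into the 2 groups, and 126 genes had an r of at least 0.99.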

How the data were processed

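Libraries were grouped by their titles. Per the labels' protocols, mRNA was captured on beads and directional libraries were made. HISAT2, DESeq2 and GRCm39 appear in the submitters' processing notes, which as held here name no counter, strand setting or annotation. The authors deposited whole-number read counts for 24794 genes and FPKM, rounded to 2 decimals, for 24494.

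The tests on counts used edgeR 4.0.16 under R 4.3.3 (TMM scaling, filterByExpr, glmQLFit and glmQLFTest, Benjamini-Hochberg over 13779 genes, threshold 0.05), and the steps were tested on simulated data. CPM used TMM-scaled totals, and the SE is the log2 change divided by the square root of F. Libraries of a group differed beyond sampling noise (mean chi-square per gene 1.86 to 2.22), so each was counted once. Gene lists and alternatives, and the members themselves, were chosen with earlier results of these data known. Named genes are all members, all further MMPs and TIMPs, up to 3 risen and 3 fallen genes per list by adjusted p, and the 3 genes most correlated with Mmp3, others being marked. Alternatives were other scalings, filters and tools (DESeq2 1.42.0, limma 3.58.1 on log2(FPKM + 0.1) and log2(FPKM + 1)), the replicate block, left-out libraries and a threshold of 0.01. Seed words were sought with Python 3.11.15 in GENCODE M21 (GRCm38), and promoters came from RefSeq. Protein sequences were not used here.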

Additional observations from a re-analysis of the deposited data

How the results depend on the processing

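Mmp3, Mmp9, Mmp19 and Timp1 kept their direction and their call under every alternative that tested them, and Mmp2 was not called under any. With at least 2 CPM in 3 libraries Mmp9 and Mmp13 were not tested. No tested member changed direction. The count of risen members was 2 in place of 4 with limma on FPKM at either pseudocount, 1 or 0.1, and Mmp13 was not called with an adjusted p under 0.01. Without a filter, the further MMPs and Timp4 had 1 gene called as risen (Mmp15, adjusted p = 0.0322, edgeR) and 2 fallen, while the activators had 1 fallen. Mmp15 rested on 2, 5 and 4 counts in mimic and 0, 1 and 0 in control libraries, too few for a statement on direction. The 2 fallen were Mmp11, and Mmp12 with adjusted p = 0.000268 (edgeR), of whose 19 counts 18 lie in control replicate 2. The activators had 0 fallen with the DESeq2 Wald test and 9 promoter factors fell with total counts only. The causes were not tested.

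Leaving out each library in turn left 3 to 4 risen and 2 to 3 fallen members and 0 to 2 fallen activators. Log2 changes ranged from -1.81 to -1.60 for Mmp3, 1.09 to 1.34 for Mmp9, -1.68 to -0.96 for Mmp13, 0.15 to 0.38 for Mmp14 and 0.05 to 0.09 for Timp2.

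The labels do not say whether libraries with the same replicate number were paired. The correlations of the deviations of same-number libraries were 0.0274, 0.0728 and 0.0548. Those of different numbers ran from -0.0583 to 0.00547, so each library correlated best with its own number. The correlations were weak, and whether the replicates share a batch or culture was not tested. With the replicate block 3403 genes rose and 3484 fell, 6750 of the 6772 calls were kept, and 4 members rose and 3 fell. Few reads limit Mmp13 and Reck.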
